A study of Mus musculus with 6 samples.

Results

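The stearoyl-CoA desaturases (Scd1, Scd2), the front-end fatty acid desaturase family (Fads1, Fads2, Fads3) and the very long chain fatty acid elongases (Elovl1, Elovl2, Elovl3, Elovl5, Elovl6) were followed in mouse liver on 2 diets. These 10 genes and the lists below were chosen by name with earlier results of these data known. Their shares set beside those of all genes are therefore descriptive. All 10 were measured among 19938 genes tested, each by 1 probe set that the array annotation gives to that gene alone. The livers came from male mice of the inbred strain C57BL/6, and their RNA was hybridised to 6 Affymetrix Mouse Gene 1.0 ST arrays. The labels give the mice as 6 weeks old when obtained, with 1 week on chow before the diets, and the sources used here do not give the length of feeding. The CH group (3 arrays, CH1 to CH3) ate chow with 1% cholesterol by weight. The LE group (3 arrays, LE1 to LE3) ate chow with 100 mg lovastatin and 21 mg ezetimibe in each 100 g. Lovastatin inhibits HMG-CoA reductase, which commits carbon to cholesterol synthesis, whereas ezetimibe blocks intestinal sterol uptake, so the comparison sets a diet rich in cholesterol against one that restricts it. No genetic change is given for either group, and the plain chow group of the labels is not analysed here, so a difference below says which diet was higher but not which of them departed from chow. The labels call the arrays biological replicates without tying each to 1 mouse. The spread behind each p-value is thus that of these arrays and may be partly technical. In the tests gene by gene it is also partly pooled over all genes.

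These enzymes tailor the fatty acids that enter membranes, triglycerides and cholesterol esters. Stearoyl-CoA desaturases put the first double bond into saturated acyl-CoA and make oleate and palmitoleate. Fads and Elovl enzymes alternate along the route from dietary linoleate and linolenate to arachidonate, eicosapentaenoate and docosahexaenoate, while other elongases lengthen saturated and monounsaturated chains. In liver, much of the family is known to be controlled at the transcript level by the sterol regulatory element binding proteins SREBP-1c and SREBP-2, by the oxysterol receptor LXR and by polyunsaturated fatty acids.

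Of the 10 genes, 8 were higher with lovastatin and ezetimibe, 1 (Elovl3) was lower and 1 (Scd1) was not called, where a call is an adjusted p below 0.05 in limma (Benjamini-Hochberg over all genes). The same rule called 12.1% of all genes tested, made up of 7.01% higher and 5.08% lower. Calls were more frequent among bright genes, with 586 of the 1994 brightest (29.4%), and 8 of the 10 family genes, all but Scd2 and Fads3, belong to these 1994. Scd2 rose the most of the family, 11.4-fold, followed by Elovl6 at 2.89-fold, Fads1 at 2.03-fold and Elovl5 at 1.91-fold. The values of the 2 diets did not overlap for 9 of the 10 genes, against 30.6% of all genes. The median difference, LE minus CH on the log2(intensity + 1) scale, was 0.70 over the 10 genes and 0.00 over all genes tested. At least a 2-fold rise was seen for 3 of the 10, against 0.627% of all genes. Signals were tight, with SDs between 0.01 and 0.08 on the log2 scale (n = 3 arrays), beside a median SD of 0.07 over all genes.

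**Figure D1:**
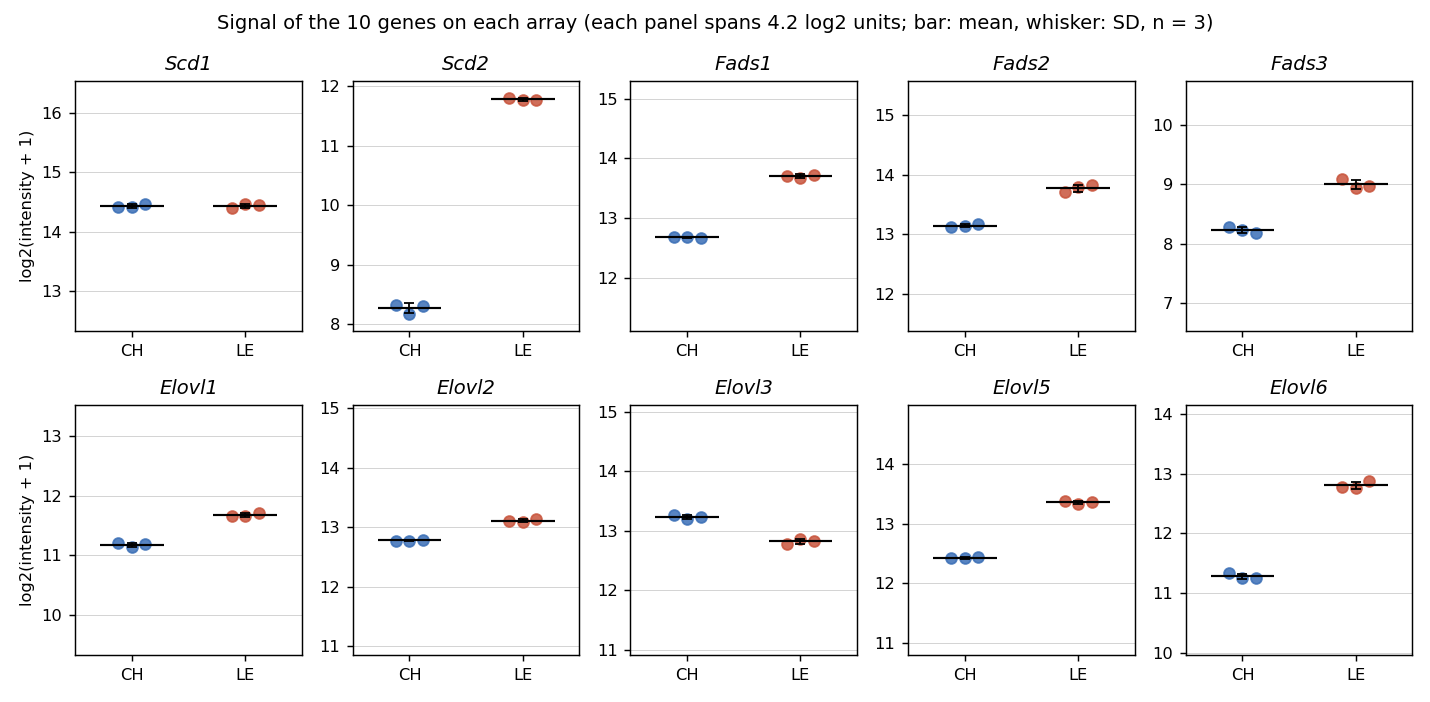
Signal of each gene on the 6 arrays as log2(intensity + 1), with CH arrays in blue, LE arrays in red, the mean as a bar and the SD as a whisker (n = 3); every panel spans the same number of log2 units. The diets are apart for every gene but Scd1, widest for Scd2, and Elovl3 is the panel in which LE lies below CH.

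The arrays were comparable. Median probe set intensities lay between 158 and 163, and the correlation of 2 arrays across genes (Pearson's r, with genes not independent of each other) was 0.997 to 0.998 within a diet and 0.990 to 0.991 between diets. Of all genes, 2410 were called (12.1%), 1398 higher (7.01%) and 1012 lower (5.08%). Of the called genes 58.0% were higher, against 47.7% after quantile normalisation and 48.4% with array medians centred. Hepatocyte genes were bright on all arrays, and the summed intensity of 5 markers (Alb, Ttr, Apoa1, Cps1, Tat) was 95022 to 95768 in CH and 95373 to 97461 in LE, with none called. Of 8 macrophage markers 7 rose (5 to 6 when any 1 array was left out), against 7.01% of all genes. The summed intensity of these markers was 6581 to 6923 in CH and 8121 to 8491 in LE. Their part in the differences below was not tested. Of 5 adipocyte, 6 endothelial, 5 cholangiocyte and 5 lymphocyte markers none was called. Of 7 stellate cell markers 1 fell, Col3a1, so that 14.3% were called, near the 12.1% of all genes. The call of Col3a1 ended when any 1 array was left out (limma adjusted p 0.0669 to 0.147). In whole liver, fewer cells of a type and less RNA per cell cannot be told apart.

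Among the desaturases of saturated acyl chains, Scd2 rose and Scd1 was not called. Scd1, the main stearoyl-CoA desaturase of adult liver, read 21860.2, 21907 and 22618 intensity units on the CH arrays and 21624, 22538 and 22286 on the LE arrays (probe set 10467979). The ranges overlap almost fully, and the highest value was on a CH array and the lowest on an LE array. The difference was 0.00 on the log2 scale (SE 0.05, limma adjusted p = 0.992), with a 95% interval from -0.11 to 0.11, or from -7.28% to 8.04% of the CH level.

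The Scd1 signal sat near the top of the measured range. It was 67.6% to 71.4% of the brightest probe set of its array, and on each array only 4 or 5 genes were brighter. The brightest probe set exceeded Scd1 by 0.49 to 0.56 on the log2 scale, which is not a measured ceiling for the probes of Scd1. The 4 genes with a mean level above that of Scd1 differed between diets by -0.03 to 0.00 on the log2 scale, and none of them was called. Among the brightest 1% of genes, 199 in all, 38 were called (19.1%) and 2 rose at least 2-fold, Fads1 and the sterol desaturase gene Sc5d, which belongs to the cholesterol synthesis list. Whether the probes of Scd1 could have shown a rise from this level was not tested, so the interval holds for the array signal and bounds the transcript only as far as that signal was still proportional.

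**Figure D2:**
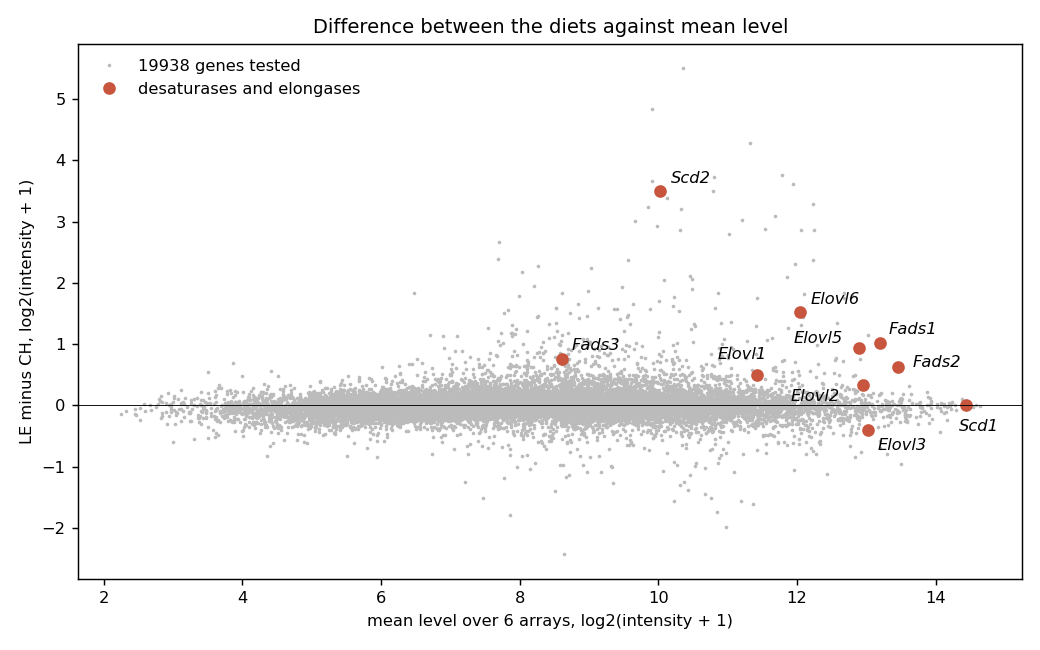
Difference between diets (LE minus CH) against the mean level over the 6 arrays, both on the log2(intensity + 1) scale, for 19938 genes (grey) and the 10 desaturases and elongases (red). Scd1 lies at the right-hand end of the cloud with a difference of 0.00, whereas Fads1 and Fads2, also bright, lie above it at 1.02 and 0.63.

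Scd2, a stearoyl-CoA desaturase isoform known mainly from brain, adipose tissue and the neonatal liver, read 320.6, 288 and 317 intensity units in CH and 3562, 3491 and 3476 in LE (probe set 10463355). Every LE array was above every CH array by a wide margin. The log2 level went from 8.27 ± 0.08 to 11.78 ± 0.02 (SD, n = 3), a rise of 3.51 (SE 0.06, adjusted p = 3.13e-08) or 11.4-fold with a 95% interval from 10.4-fold to 12.4-fold. Only 7 of the 19938 genes rose more. The 3 genes whose centred values over the 6 arrays lay closest to those of Scd2 were Rdh11, Msmo1 and Lss, with root mean square differences of 0.06, 0.08 and 0.12 on the log2 scale. With 2 diets such closeness mostly reflects a rise of similar size, here 3.50, 3.62 and 3.73, and shows nothing further in common. Rdh11 is a retinol dehydrogenase, and Msmo1 and Lss are enzymes of cholesterol synthesis. Summed adipocyte marker intensity was 643 to 697 in CH and 641 to 697 in LE, and the adipocyte hormone gene Adipoq read 38.6 to 47.8 in CH and 43.4 to 49.7 in LE, below the array medians.

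Within each array the log2 ratio of Scd2 to Scd1 rose from a mean of -6.16 (SD 0.08) in CH to -2.66 (SD 0.05) in LE, a shift of 3.50 (SE 0.05, n = 3 per diet). With a difference of 0.00 in the Scd1 signal, this shift is in effect the rise of Scd2 itself, and it would read the same if the Scd1 signal were compressed near the top of the range, so it gives no measure of Scd2 against Scd1 transcript. The exact two-sided permutation test gave p = 0.1, also after adjustment over the 7 pairs of genes compared. With 3 arrays against 3 this is the smallest p the test allows, so none of the 7 pairs could pass it. A ratio of 2 probe sets gives the change between diets only, since the probe sets differ in brightness for reasons of their own.

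Scd1 and Scd2 lie in 1 cluster on chromosome 19 with Scd3 and Scd4, in the order Scd3, Scd2, Scd4, Scd1 of the RefSeq annotation. Scd3 read 82.9 to 91.7 in CH and 87.3 to 92.4 in LE and Scd4 read 85.3 to 110.2 in CH and 85.6 to 91.0 in LE, all below the array medians, and neither was called (differences 0.01 and -0.10, adjusted p = 0.920 and 0.580). The nearest protein-coding neighbours, taken by position after the members' values had been seen, were Bloc1s2, Pkd2l1, Wnt8b and Sec31b, with differences from 0.00 to 0.05 and adjusted p-values of 0.811 to 0.976. Scd2 was the 1 gene called among these 8, a share near the 12.1% called over all genes tested.

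The 3 Fads genes form another cluster on chromosome 19, in the order Fads3, Fads2, Fads1, and all 3 rose. Fads1, which introduces the last double bond on the way to arachidonate and eicosapentaenoate, read 6575, 6541 and 6522 intensity units in CH and 13413, 12973 and 13556 in LE (probe set 10461439). The 3 CH arrays were nearly equal, and every LE array was well above them. The log2 rise was 1.02 (SE 0.05, adjusted p = 6.93e-06), or 2.03-fold. Gas2l3, a cytoskeleton linker gene, the acetyl-CoA carboxylase gene Acacb and the sterol isomerase gene Ebp had the most similar centred values, with root mean square differences of 0.01, 0.02 and 0.03.

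Fads2 catalyses the first desaturation of linoleate and linolenate and is held to limit the rate of the route. It read 8905, 8984 and 9239.9 in CH and 13326, 14184 and 14453 in LE (probe set 10465895), again without overlap, and LE1 was the lowest of the LE arrays. The rise was 0.63 (SE 0.05, adjusted p = 1.98e-04), or 1.55-fold. It was smaller than that of Fads1, and the within-array log2 ratio of Fads2 to Fads1 dropped from 0.47 (SD 0.03) to 0.07 (SD 0.07), a shift of -0.40 (SE 0.05, n = 3 per diet, exact permutation p = 0.1).

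Fads3, whose product is known to act on sphingoid bases rather than in this route, read 311, 299.9 and 289.6 in CH and 539, 490.1 and 501 in LE (probe set 10461423). It rose by 0.76 (SE 0.06, adjusted p = 1.17e-04), or 1.70-fold, with no overlap between the diets. Against Fads1 on the same array its log2 ratio changed by -0.26 (SE 0.04, n = 3 per diet, exact permutation p = 0.1). The protein-coding neighbours of the cluster, also taken by position, were Best1 (0.02), Rab3il1 (0.14) and the DNA repair nuclease gene Fen1 (-0.07), which were not called (adjusted p = 0.877, 0.232 and 0.633), and Tmem258, which fell by 0.25 (SE 0.06, adjusted p = 0.0317). Whether the call of Tmem258 holds in the alternative settings was not followed.

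Among the elongases, Elovl5 and Elovl2 serve the polyunsaturated route and both rose. Elovl5, which lengthens desaturated chains of this route, read 5499.6, 5461 and 5561 in CH and 10637, 10261 and 10597 in LE (probe set 10587284). The diets were far apart and the spread within each was small, with log2 SDs of 0.01 and 0.03 (n = 3). The rise was 0.93 (SE 0.05, adjusted p = 1.08e-05), or 1.91-fold. Elovl2, which acts on longer polyunsaturated chains towards docosahexaenoate, read 7004, 7016 and 7070.3 in CH and 8791, 8749.6 and 9039.7 in LE (probe set 10408838). Its rise was smaller but also without overlap, 0.33 (SE 0.05, adjusted p = 0.00268), or 1.26-fold. The log2 ratio of Elovl5 to Elovl2 went from -0.35 (SD 0.01) to 0.24 (SD 0.03), a shift of 0.60 (SE 0.02, n = 3 per diet, exact permutation p = 0.1).

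The remaining elongases act mostly on saturated and monounsaturated chains and did not move together. Elovl6, which turns palmitate into stearate and so feeds the stearoyl-CoA desaturases, read 2581, 2427 and 2441.5 in CH and 7027, 6977 and 7514 in LE (probe set 10495993). LE3 was the highest array, and CH1, the highest of its diet, was far below every LE array. The rise was 1.53 (SE 0.05, adjusted p = 1.60e-06), or 2.89-fold with a 95% interval from 2.64-fold to 3.15-fold. Closest to it in centred values were Ndrg1, Lbr and 9030619P08Rik, with root mean square differences of 0.04 each. Lbr encodes a nuclear membrane protein with sterol reductase activity.

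Elovl1, a broadly expressed elongase of very long saturated chains, read 2355, 2256 and 2333 in CH and 3217, 3240.5 and 3355 in LE (probe set 10507539). It rose by 0.50 (SE 0.05, adjusted p = 4.49e-04), or 1.41-fold. Elovl3 was the member that fell. This elongase of long saturated and monounsaturated chains, known in mouse liver for a daily rhythm and a higher level in males, read 9781, 9385 and 9647 in CH and 7002, 7421 and 7260.1 in LE (probe set 10463551). All 3 LE arrays were below all 3 CH arrays, and the difference was -0.41 (SE 0.05, adjusted p = 0.00139), that is 1.33-fold lower. The time of day at which livers were taken is not given in the sources used here.

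Within an array the log2 ratio of Elovl3 to Elovl6 changed by -1.94 (SE 0.04), from 1.95 (SD 0.03) to 0.01 (SD 0.07), that of Elovl6 to Elovl5 by 0.60 (SE 0.04) and that of Elovl1 to Elovl6 by -1.03 (SE 0.03), with n = 3 per diet and an exact permutation p = 0.1 for each. Elovl6 thus gained on the other 3 elongases set against it, by more than the spread between arrays of a diet.

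**Figure D3:**
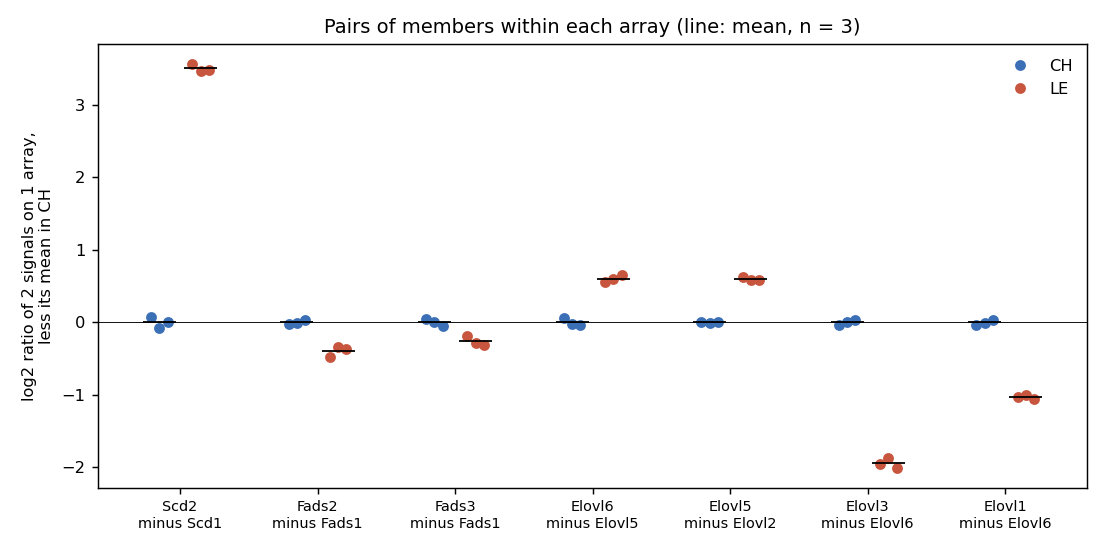
Log2 ratio of 2 genes' signals on the same array, less the mean of that ratio in CH, for 7 pairs; points are arrays (blue CH, red LE, n = 3 each) and lines are means. In every pair the 3 LE arrays lie on 1 side of the 3 CH arrays, from 3.50 for Scd2 over Scd1 to -1.94 for Elovl3 over Elovl6.

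Ordered by the difference between diets, the genes ran Scd2, Elovl6, Fads1, Elovl5, Fads3, Fads2, Elovl1, Elovl2, Scd1 and Elovl3. The 95% intervals of neighbours overlapped from Fads1 to Elovl2. Overlap of intervals is not a test of a difference between genes, and the order between adjacent genes there was not tested. The intervals did not overlap between Scd2 and Elovl6, Elovl6 and Fads1, Elovl2 and Scd1, or Scd1 and Elovl3. By role, all 4 genes of the polyunsaturated route rose with a median of 0.78 and a range from 0.33 to 1.02. Of the 5 genes acting on saturated and monounsaturated chains 3 rose, 1 fell and 1 was not called, over a range from -0.41 to 3.51. Calls came to 12.1% of all genes tested and 29.4% of the brightest 1994. In 15 alternative settings, leaving out each array in turn among them, the 9 calls held with their direction. The widest adjusted p-values over them were 0.0180 for Elovl2 and 0.0136 for Elovl3.

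**Figure D4:**
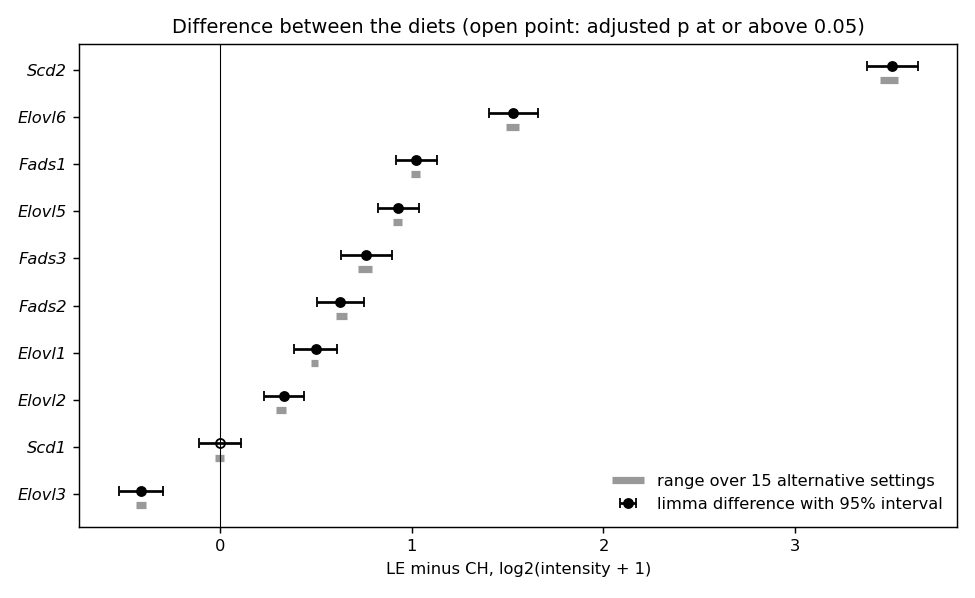
Difference between diets (LE minus CH, log2 scale) for the 10 genes, with limma's 95% interval (black) and the range of the difference over 15 alternative settings (grey). The 9 filled points passed an adjusted p of 0.05, the open point at 0.00 is Scd1, and every grey bar is narrower than the interval above it.

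RefSeq promoter sequence (build GRCm38.p6) was matched for 6 of the 10 genes, and 4 were not matched: Scd1, Scd2, Fads1 and Elovl3. The 250 bases before the annotated start were searched on both strands for TCACNCCAC (the core of the sterol regulatory element that SREBP proteins bind), CACGTG (E-box, bound by ChREBP, USF and SREBP proteins), CCAAT (the NF-Y box) and GGGCGG (the GC box of Sp1 proteins). NF-Y and Sp1 are known to act with SREBP proteins at many sterol-regulated promoters. Of 32851 promoters in the table, 1.05% held the sterol regulatory element core, 6.02% the E-box, 33.8% the CCAAT box and 32.7% the GC box. The 4 windows shown here belong to genes that rose, ordered by the size of the rise, with matches in capitals and each strand read 5′ to 3′ towards the gene. They are chr3:129532136-129532385 (plus strand) for Elovl6, chr9:77917115-77917364 (plus strand) for Elovl5, chr19:10041298-10041547 (plus strand) for Fads3 and chr19:10101504-10101753 (minus strand) for Fads2.
Elovl6: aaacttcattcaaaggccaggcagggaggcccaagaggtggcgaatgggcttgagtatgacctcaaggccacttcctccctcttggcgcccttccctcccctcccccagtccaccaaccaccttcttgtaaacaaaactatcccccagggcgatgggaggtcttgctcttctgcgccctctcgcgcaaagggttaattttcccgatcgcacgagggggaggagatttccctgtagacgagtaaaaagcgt
Elovl5: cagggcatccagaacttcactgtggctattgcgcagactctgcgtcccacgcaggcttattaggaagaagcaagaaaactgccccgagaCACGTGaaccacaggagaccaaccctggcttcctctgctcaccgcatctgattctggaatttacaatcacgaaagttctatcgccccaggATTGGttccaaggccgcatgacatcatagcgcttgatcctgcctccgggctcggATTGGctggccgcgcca
Fads3: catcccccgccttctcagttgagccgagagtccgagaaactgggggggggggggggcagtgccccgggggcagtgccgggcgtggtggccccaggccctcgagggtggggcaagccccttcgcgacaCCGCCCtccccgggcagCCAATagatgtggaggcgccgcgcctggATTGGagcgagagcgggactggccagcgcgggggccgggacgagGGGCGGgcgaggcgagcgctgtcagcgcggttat
Fads2: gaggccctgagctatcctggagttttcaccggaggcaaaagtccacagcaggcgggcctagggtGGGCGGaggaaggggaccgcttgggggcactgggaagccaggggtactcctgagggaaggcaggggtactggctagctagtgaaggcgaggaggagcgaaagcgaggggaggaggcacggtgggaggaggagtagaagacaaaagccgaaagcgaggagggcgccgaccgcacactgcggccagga

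The Elovl6 window, of the gene that rose 2.89-fold, held none of the 4 motifs. The Elovl5 window held 1 E-box starting 161 bases before the start and 2 CCAAT boxes on the opposite strand, and the Fads3 window 2 CCAAT boxes and 2 GC boxes. The Fads2 window held 1 GC box. The upstream one of 2 Elovl1 windows held 5 GC boxes, 1 of which overlaps a CCAAT box, and the other held 2 GC boxes, while of 2 Elovl2 windows 1 held 5 GC boxes and 1 none of the motifs. The sterol regulatory element core was found in none of these windows in this spelling, which says nothing of other spellings or of sequence farther away. These matches are a description of the letters and were not related to the size of the changes.

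Other desaturases and elongases moved little. Of 7 such genes 2 rose: Fads6, a desaturase-like gene, by 0.27 (SE 0.05, adjusted p = 0.0126) and Degs1, the dihydroceramide desaturase of sphingolipid synthesis, by 0.27 (SE 0.05, adjusted p = 0.0123). Elovl4 and Elovl7 were dim, at 79.9 to 108.4 and 83.3 to 118.3 intensity units over the 6 arrays, and were not called (differences -0.16 and 0.26, adjusted p = 0.349 and 0.126). The calls came to 28.6% of the 7 genes, against 12.1% of all genes tested, and the median over the 7 was 0.08.

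The elongation cycle needs 3 further enzymes after the Elovl condensation step, and 3 of 6 genes measured for them rose. That is 50%, against 12.1% called over all genes tested. Tecr, the reductase that closes the cycle, read 4812, 5021 and 5242 in CH and 8433, 8118 and 8359 in LE, a rise of 0.73 (SE 0.05, adjusted p = 9.26e-05) with no overlap. Hsd17b12, the ketoacyl-CoA reductase, rose by 0.48 (SE 0.05, adjusted p = 3.94e-04) and the dehydratase gene Hacd3 by 0.26 (SE 0.05, adjusted p = 0.00925). The dehydratase genes Hacd1, Hacd2 and Hacd4 did not pass (differences 0.03, 0.03 and 0.08, adjusted p = 0.751, 0.850 and 0.459). Each of the 3 steps thus had 1 gene higher in LE, by 0.26 to 0.73. For the dehydratase step this rests on Hacd3 alone, at log2 levels of 11.26 in CH and 11.52 in LE. The uncalled Hacd2 was brighter, at 12.64 and 12.67. Not every elongase rose, since Elovl3 fell.

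Desaturases draw electrons through cytochrome b5 and its reductase. Of 6 genes for these, 1 rose, the reductase gene Cyb5r3 (0.21, SE 0.05, adjusted p = 0.0321), and its call ended when any 1 array was left out (adjusted p 0.0582 to 0.109). That is 16.7% of these genes, near the 12.1% called over all genes tested. The cytochrome gene Cyb5a, bright at log2 levels of 13.66 in CH and 13.60 in LE, was not called (-0.06, SE 0.05, adjusted p = 0.532), nor was Cyb5b (0.19, SE 0.05, adjusted p = 0.0678).

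Of the genes listed for palmitate supply, Acacb and Thrsp among them, 9 of 9 measured rose, against 7.01% called higher over all genes tested. The median of the 9 was 1.30 and the range 0.77 to 2.38. Acss2 and Acly, which make acetyl-CoA, rose by 2.38 and 2.30 (SE 0.05 each, adjusted p = 9.59e-08 and 9.57e-08). The fatty acid synthase gene Fasn, which makes the palmitate itself, rose by 1.75 (SE 0.05, adjusted p = 2.99e-07) and the malic enzyme gene Me1, a source of NADPH, by 1.32 (SE 0.05, adjusted p = 2.32e-06). Scd2 lay above this range, Elovl6, Fads1 and Elovl5 within it, and the other 6 members below it. For comparison, 17 of 17 measured cholesterol synthesis genes rose, against the same 7.01%. Their median was 3.21 and their range 0.99 to 5.50, and Scd2 was the 1 desaturase or elongase above that median.

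Genes that use the finished acyl chains were mixed. Calls came to 50% of the acyl-CoA synthetase and transporter genes, 12.5% of the phospholipid remodelling genes and 80% of the peroxisomal genes. Over all genes tested the share was 12.1%, so the phospholipid remodelling count is near that of any genes. Of 6 acyl-CoA synthetase and transporter genes, Acsl4, which prefers arachidonate, rose by 0.85 (SE 0.05, adjusted p = 1.77e-05), Acsl5 rose by 0.56 (SE 0.06, adjusted p = 5.46e-04) and Slc27a2 fell by 0.27 (SE 0.05, adjusted p = 0.00842). Of 8 phospholipid remodelling genes 1 rose, Lpcat3, which places polyunsaturated chains into phospholipids (0.29, SE 0.05, adjusted p = 0.00494). Of 5 genes for the peroxisomal shortening that completes docosahexaenoate synthesis, 3 fell, namely Scp2 (-0.32), Acaa1a (-0.25) and Hsd17b4 (-0.25, SE 0.05 each, adjusted p = 0.00573, 0.0109 and 0.0110), and the transporter gene Abcd2 rose by 1.95 (SE 0.06, adjusted p = 4.25e-07). Without CH1, Acaa1a and Hsd17b4 did not pass (adjusted p = 0.0505 and 0.0554), which leaves 1 gene lower.

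The regulators of the family diverged. Srebf1, which encodes SREBP-1a and SREBP-1c, read 2781, 2596 and 2644 in CH and 990.3, 967 and 995 in LE, and so fell by 1.44 (SE 0.05, adjusted p = 1.35e-06) whereas 8 of the 10 family genes rose. Srebf2, which encodes SREBP-2, read 651, 648 and 650.4 in CH and 2198, 2118 and 2335 in LE, a rise of 1.77 (SE 0.05, adjusted p = 5.30e-07). Insig1 and Scap, which hold and escort the SREBP precursors, rose by 1.79 and 1.09 (SE 0.05 each, adjusted p = 2.80e-07 and 6.32e-06), and Mlxipl, the gene of ChREBP, fell by 0.61 (SE 0.05, adjusted p = 2.04e-04). Pparg fell by 0.31 (SE 0.07, adjusted p = 0.0187), a call that ended without CH1, CH2 or CH3 (adjusted p = 0.0591, 0.0570 and 0.0520). Nr1h3, the gene of LXR alpha, and Ppara were not called (0.03 and -0.18, adjusted p = 0.798 and 0.0566). In all, 3 of 13 regulators rose and 3 fell, so 46.2% were called, against 12.1% of all genes tested. The array does not measure the processing of SREBP proteins.

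**Figure D5:**
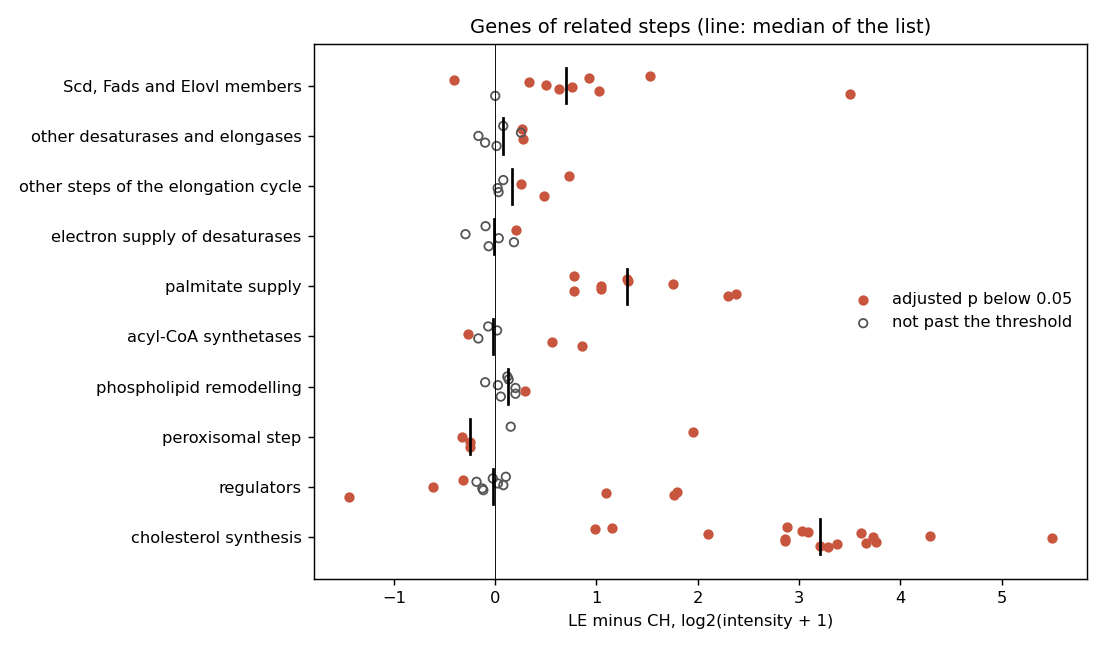
Difference between diets (LE minus CH, log2 scale) of each measured gene in the family and in 9 lists of related steps; filled points passed an adjusted p of 0.05, open points did not, and the vertical lines are list medians. Palmitate supply and cholesterol synthesis lie wholly to the right of 0, the family is spread from -0.41 to 3.51, and regulators lie on both sides.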

How the data were processed

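Liver RNA was measured on 6 arrays, 3 per diet, with groups taken from the sample titles. The authors deposited 1 table of linear intensities per probe set. The sources used here do not give its background correction, normalisation or genome build. For differential expression the series design lists Partek and cyberT. Of 35556 probe sets, 21789 carried 1 gene symbol, 1621 several and 12146 none in the platform annotation, and 21698 of the first matched a RefSeq gene by identifier with 0 symbols changed. Per gene the single-gene probe set of highest mean was kept, 19938 genes in all. Of 86 genes in the lists of related steps 77 had such a probe set and are counted, and related transcripts may bind the same probes. No 2 arrays shared more than 28 identical probe set values.

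Values were taken as log2(intensity + 1), which understates changes of dim genes, and compared with limma 3.58.1 (lmFit, eBayes) under R 4.3.3. Tests were two-sided, and limma's p-values were adjusted by Benjamini-Hochberg over all genes. The number of arrays limits the precision. In this fit the variance of each gene is moved towards a value shared by all genes. The SE of Scd1 was 0.05 here and 0.02 with an intensity trend and a robust prior. Pairs of genes were compared by exact permutation over arrays. The fits were tested on simulated data. The genes followed and the lists were chosen with earlier results of these data known. The text names all 10 family genes, list genes with the largest change or bearing on a count, and for family genes with at least a 2-fold change the 3 genes of most similar centred values. That similarity is set mostly by the size of the difference between diets. Alternatives were a replicate block, quantile normalisation, median centring, dropping the dimmest 33.3% of genes, averaged probe sets, an intensity trend with a robust prior, a test in the manner of cyberT (window of 101 genes, 10 prior degrees of freedom), a pseudocount of 16, no pseudocount, tests on every probe set, a limit of 1.5-fold and fits without each array in turn. Python 3.11.15 and matplotlib 3.10.9 drew the figures. No scan date or other batch is given in the labels.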

Additional observations from a re-analysis of the deposited data

How the results depend on the processing

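The 9 calls and their directions held in the 15 alternative settings run gene by gene, with 8 genes higher and 1 lower in each, and the 7 pairwise ratios kept their direction in the 3 settings tried. Each family gene has 1 probe set, so averaging probe sets left its difference as it was. The difference of Scd1, which was not called, was -0.025 after median centring and -0.011 to 0.019 when 1 array was left out. Over all genes, 2410 were called, 1489 to 1868 when 1 array was left out (1489 without CH1, 1514 without LE2) and 436 with at least a 1.5-fold change (316 higher, 120 lower). The 1012 lower genes became 1598 after quantile normalisation, 1560 with the intensity trend and 525 to 893 when 1 array was left out (551 without CH1, 612 without CH3, 525 without LE2). With the replicate number as a block, 657 genes were lower and 1688 called. Deviations of same-numbered arrays from their group means correlated at -0.02, -0.10 and 0.16 across genes, within the -0.23 to 0.25 of differently numbered arrays. No pairing by number was visible, but with 3 arrays per diet these values cannot exclude one. Under the block, 0 electron supply genes rose, because Cyb5r3 had an adjusted p of 0.0771.

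Of 6 electron supply genes, 2 rose after quantile normalisation, with the dimmest 33.3% of genes dropped, with the intensity trend, with the cyberT-like test or with a pseudocount of 16, against 1 in the text and 0 when any 1 array was left out, and 1 fell after quantile normalisation or centring and 0 to 1 when 1 array was left out. With the trend or the cyberT-like test 2 phospholipid remodelling genes rose, and with these or without the dimmest 33.3% of genes 2 peroxisomal genes. The peroxisomal genes that fell numbered 1 to 3 when 1 array was left out. Regulators that fell numbered 5 after quantile normalisation, with the trend or with the cyberT-like test. The causes of these shifts were not tested.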
